A study of Mus musculus with 19 samples.

Results

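The primitive endoderm regulators and receptors examined here are 8 genes: the transcription factor genes Gata4, Gata6, Sox17, Sox7 and Foxa2, the endocytic adaptor gene Dab2, and the receptor genes Pdgfra and Lrp2. They were taken by name from a table of 52143 genes. Earlier results of these data were known when they were chosen, so shares called among them are not those of an unbiased set. The samples were mouse induced pluripotent stem cell (iPSC) lines, that is, somatic cells returned to a state like that of the early embryo. Every line came from fibroblasts of embryos at embryonic day 14.5, bred from parents heterozygous for the db allele of the leptin receptor (OB-R db/+), and every line had been reprogrammed with the STEMCCA lentivirus carrying Oct4, Sox2, Klf4 and cMyc. The control group was wild type at this locus and had 4 lines with 7 libraries, the db/db group had 4 lines with 8 libraries, and the corrected group had 2 lines with 4 libraries, in which db/db iPSCs had been repaired with CRISPR-Cas9. The labels leave unsaid which db/db line was corrected, whether a line is a single clone, and whether both libraries of a line had cultures of their own. No treatment is named. These are bulk samples, in which fewer cells that carry a transcript and less of it per cell cannot be told apart.

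Primitive endoderm is the layer that separates from the pluripotent epiblast inside the blastocyst and later lines the yolk sac. FGF signalling favours Gata6, which represses epiblast genes, and Pdgfra, Sox17, Gata4 and Sox7 follow in turn as the layer forms. Dab2 and the large endocytic receptor megalin, the product of Lrp2, come last and serve the sorting of the layer and its uptake of nutrients. In cultures of pluripotent cells, some cells drift towards this fate, while most of these genes are also used later in definitive endoderm, heart, endothelium or connective tissue.

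Library totals were 27333914 to 41203703 estimated counts. All 16 genes of a naive pluripotency list were above 1 CPM (the share of a gene in the counts of its library, scaled to 1e+06 counts) in every line, with summed levels of 6159 to 6934 CPM, so the defining markers of the labelled cell type were present. The line names come in pairs: A5 and B1 (controls), and db5 and db7 (db/db), each occur once with the letter a and once with b in front. Within such a pair the median difference over genes was 0.0382 to 0.107 log2 units, while it was 0.0325 between both corrected lines and 0.133 to 0.286 between all other lines. No pair of lines was within sampling noise, yet p-values that treat the line as the replicate measure a spread to which near copies contribute, and a fit that merges each such pair into 1 replicate is therefore reported too (shared name as the replicate). One library, the second of line adb_db7, had 4.81% of its counts on Gm42418, a transcript over ribosomal RNA sequence, against 0.0688% to 0.514% in the others.

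All 8 genes were low beside Pou5f1, the central pluripotency factor, whose group means were 1407 to 1489 CPM. In every line 3 of them were above 1 CPM, namely Gata4, Sox7 and Lrp2. Another 4 were above 1 CPM in some lines only. Gata6 passed this mark in 3 of 4 control lines and both corrected lines, Pdgfra in 4 control lines and both corrected lines, Dab2 in 1 control line and both corrected lines, and Sox17 in both corrected lines alone. In no db/db line did any of these 4 reach it. Foxa2 stayed below 1 CPM in every line. Per kilobase of exon, the mean level over the 10 lines was highest for Sox7, at 1.29 ± 0.62 CPM per kb (SD over lines), and Gata4, at 1.27 ± 0.44, which differed by less than their spread. Lrp2 followed at 0.529 ± 0.46, then Gata6 at 0.196 ± 0.13, Pdgfra at 0.156 ± 0.087, Sox17 at 0.148 ± 0.099 and Dab2 at 0.134 ± 0.12. From Lrp2 down to Dab2, each level differed from the next by less than the larger of their SDs. Foxa2 was last at 0.031 ± 0.025, and its gap to Dab2 was also smaller than the SD of Dab2. The order changed with the kind of line. Gata4 led in the A5, B1 and corrected lines (2.02 CPM per kb in the latter), Sox7 in the db5 lines (2.44) and Lrp2 in the db7 lines (1.32, against 1.13 for Sox7 and 0.831 for Gata4). Gata6 came next after Gata4 and Sox7 in B1 lines at 0.399 CPM per kb, and in corrected lines, at 0.245, it was below Dab2 (0.345), Sox17 (0.313) and Pdgfra (0.310).

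**Figure D1:**
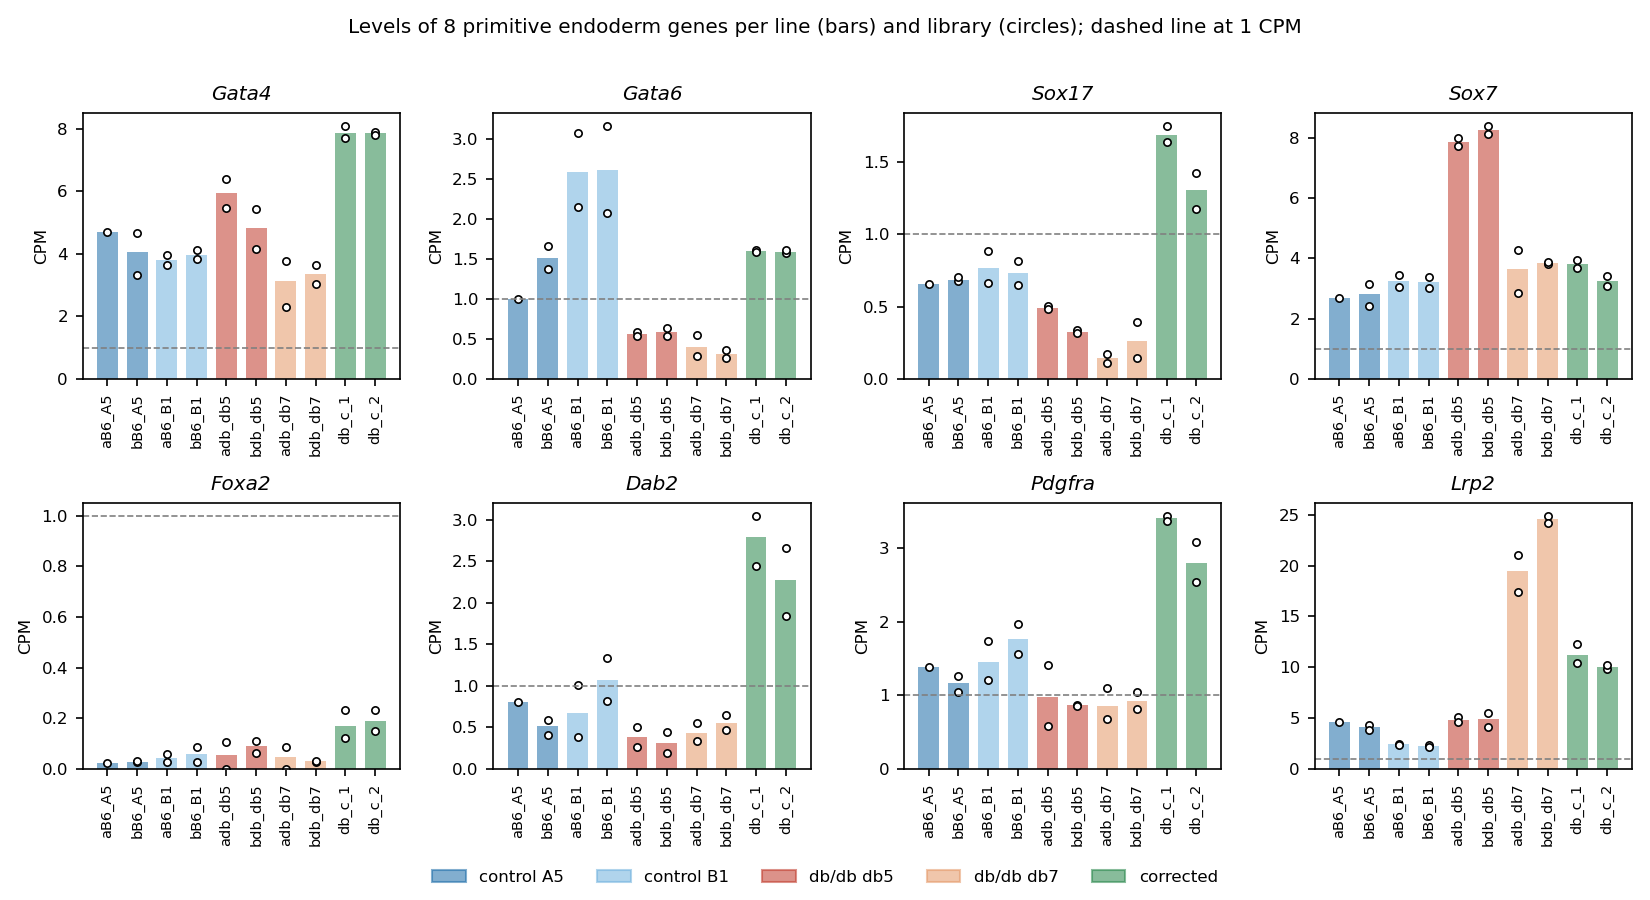
Level of each of the 8 genes in CPM (vertical axis, linear from 0, scaled per gene) in the 10 lines; bars are lines with their libraries summed, circles are single libraries, and the dashed line marks 1 CPM. Gata6, Sox17, Dab2 and Pdgfra are below 1 CPM in all 4 db/db lines and above it in both corrected lines, while Sox7 stands out in the db5 lines and Lrp2 in the db7 lines.

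Between db/db and control lines the 8 genes did not move one way. Gata6, Sox17 and Pdgfra fell, Sox7 and Lrp2 rose, and Gata4, Foxa2 and Dab2 did not pass the test (edgeR quasi-likelihood F-test, Benjamini-Hochberg adjusted p under 0.05). Thus 5 of 8 genes were called, where 16.9% of the 19700 genes tested were called (7.41% rose and 9.5% fell). The median log2 fold change of the 8 genes was -0.26, against 0.00 over all tested genes. Foxa2 passed the filter on low counts through the corrected lines alone and could not have been tested without being high there, so it is left out of the counts that involve them. The other 7 genes passed in lines of every group. In corrected against db/db lines, 5 of these 7 rose and 0 fell, where 36.7% of all genes were called and 18.7% rose. Their median was 1.60, against 0.02 over all. In corrected against control lines, 3 of 7 rose and 0 fell, where 33.2% were called and 16.2% rose, with a median of 0.94 against -0.01. The comparisons share lines, so they do not support one another. Without the second library of adb_db7, Dab2 also fell in db/db against control lines (-0.90, adjusted p = 0.045), and the corrected lines gained 1 call in each comparison, that of Sox7 against db/db lines and that of Sox17 against control lines.

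**Figure D2:**
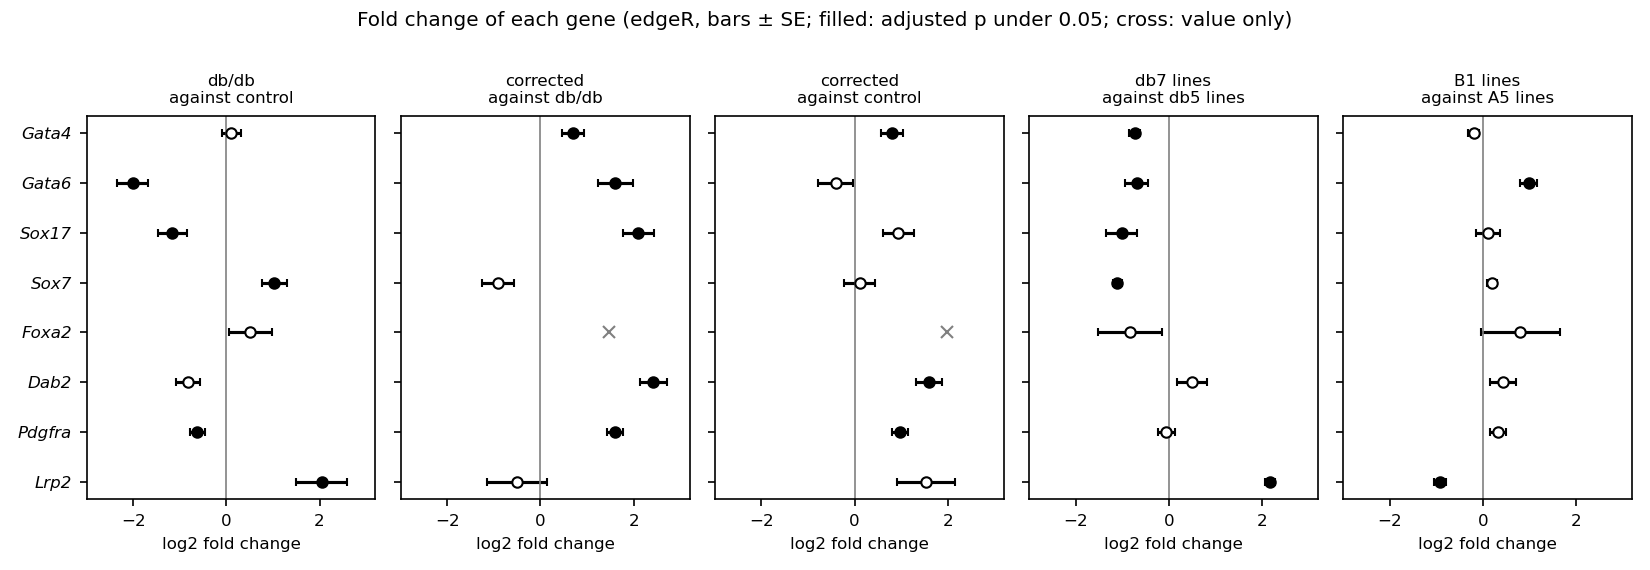
Log2 fold change (horizontal axis) of each of the 8 genes in 5 comparisons of lines, from edgeR, with bars of ± 1 SE; filled points have an adjusted p under 0.05, and grey crosses are values of Foxa2 without a test. Gata6, Sox17 and Pdgfra lie below 0 in db/db against control lines and above 0 in corrected against db/db lines, and the largest difference between names of a single genotype is that of Lrp2, at 2.18 between db7 and db5 lines.

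With the shared name as the replicate, giving 2 samples a group, 0 of the 8 genes were called between db/db and control lines with edgeR (2 up and 4 down at an unadjusted p under 0.05). The count of all genes at that unadjusted p is not given here. The adjusted p was 0.14 for Gata6, 0.25 for Sox17, 0.25 for Lrp2, 0.28 for Sox7 and 0.30 for Pdgfra, and 34 of all genes were called in place of 3332. In corrected against db/db lines, Dab2 (adjusted p = 0.017), Pdgfra (0.021) and Sox17 (0.028) kept their calls, and Gata6 (0.052) and Gata4 (0.13) lost them. Of all genes, 1631 rose and 1650 fell in that comparison. In corrected against control lines, only Dab2 kept its call (0.033), while Pdgfra (0.053) and Gata4 (0.10) lost theirs, and 1227 of all genes rose and 1320 fell. This fit keeps the corrected lines as 2 samples, although they were the most alike of all lines. With these merged as well, which leaves a lone corrected sample that is assumed to vary like the other groups, 0 of the 7 genes were called with edgeR in either comparison (lowest adjusted p 0.20 against db/db and 0.26 against control lines). A lone sample shows no spread of its own, so unadjusted counts of the merged fit are not given here. Its log2 fold change over db/db lines was 2.41 for Dab2, 2.09 for Sox17 and 1.59 for Pdgfra.

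Gata4 (ENSMUSG00000021944, GRCm38 chromosome 14, 63198922 to 63271692, reverse strand) encodes a zinc finger factor that holds cells in the endoderm state. It was at 4.71 and 4.05 CPM in the A5 control lines, 3.79 and 3.97 in the B1 control lines, 5.93 and 4.83 in the db5 lines, 3.13 and 3.36 in db7, and 7.88 and 7.86 in corrected lines. The corrected lines were above every other line, and control and db/db lines overlapped. Gata4 rose in corrected against db/db lines (log2 0.69 ± 0.23 SE, adjusted p = 0.042) and against control lines (0.80 ± 0.23, 0.025). It did not pass between db/db and control lines (0.11 ± 0.20, 0.74), where the db/db names lay on either side of the controls: db7 was lower than db5 by a log2 of -0.73 ± 0.12 (adjusted p = 0.00044). The rise over db/db lines ended without either corrected line (0.17 in each case), without the filter on low counts (0.056), without line adb_db7 (0.079), bdb_db7 (0.072) or bdb_db5 (0.051), and in a fit of only these groups (0.082). Without both db7 lines it was 0.38 (0.077), and without both db5 lines 1.11 (0.0010). The rise over control lines ended without either corrected line (0.13 in each case), without line aB6_B1 (0.055), without line bB6_B1 (0.053) and without both B1 lines (0.10).

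Gata6 (ENSMUSG00000005836, chromosome 18, 11052064 to 11085635, forward strand) encodes the related factor that starts the primitive endoderm programme. Its level was 0.995 and 1.51 CPM in the A5 control lines, 2.59 and 2.61 in the B1 control lines, 0.561 and 0.581 in the db5 lines, 0.400 and 0.308 in db7, and 1.60 and 1.59 in corrected lines. Every db/db line was below every line of the other groups, and the corrected lines lay between the A5 and B1 controls. Gata6 fell in db/db against control lines (log2 -2.01 ± 0.33, edgeR adjusted p = 0.0039), the largest fall among the 8 genes, and rose in corrected against db/db lines (1.60 ± 0.38, 0.0088). Against control lines the corrected lines did not pass (-0.41 ± 0.38, 0.43). The fall was called in all 12 fits that left out a line or both lines of a name. The rise ended without db_c_1 (0.058) and without db_c_2 (0.056). Names within a genotype differed as well: B1 was above A5 by 0.98 ± 0.18 (adjusted p = 0.0010) and db7 below db5 by -0.69 ± 0.25 (0.047), the latter call ending without adb_db5 (0.12), bdb_db5 (0.14) or bdb_db7 (0.25) and with DESeq2 (0.14). A noncoding transcript on the opposite strand overlaps Gata6 and had 6 counts in all libraries, against 844 for Gata6.

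Sox17 (ENSMUSG00000025902, chromosome 1, 4490931 to 4497354, reverse strand) encodes an HMG-box factor of primitive and definitive endoderm and of arterial endothelium. It was at 0.655 and 0.687 CPM in the A5 control lines, 0.766 and 0.731 in the B1 control lines, 0.492 and 0.328 in the db5 lines, 0.144 and 0.262 in db7, and 1.69 and 1.30 in corrected lines. The 3 groups did not overlap. Sox17 fell in db/db against control lines (-1.16 ± 0.30, edgeR adjusted p = 0.027) and rose in corrected against db/db lines (2.10 ± 0.34, 0.0013). The corrected lines stood 0.94 ± 0.33 above control lines, which missed the threshold (0.051) and passed it in 5 of 18 alternatives, among them the fit without the second library of adb_db7 (0.033). The fall rested on few counts, 178 in all control and 84 in all db/db libraries. It ended without line aB6_B1 (0.068), bB6_B1 (0.063), bdb_db5 (0.051) or bdb_db7 (0.066) and without both B1 lines (0.12). Without both db7 lines it was -0.74 (0.058), and without both db5 lines -1.76 (0.0032). The db7 lines were below the db5 lines (-1.01 ± 0.33, 0.029), a call that ended without adb_db5 (0.22), adb_db7 (0.16) or the second library of adb_db7 (0.054) and with DESeq2 (0.086).

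Sox7 (ENSMUSG00000063060, chromosome 14, 63943673 to 63950732, forward strand) belongs to the same SoxF group as Sox17 and, like it, acts in both endoderm and vessels. Levels were 2.67 and 2.82 CPM in the A5 control lines, 3.24 and 3.2 in the B1 control lines, 7.85 and 8.27 in the db5 lines, 3.65 and 3.83 in db7, and 3.8 and 3.24 in corrected lines. Both db5 lines were far above all other lines, which lay close together. Sox7 therefore went the opposite way to Sox17 in db/db against control lines (1.03 ± 0.27, edgeR adjusted p = 0.029), and its db7 lines were below the db5 lines by a log2 of -1.11 ± 0.10 (4.0e-06). Without both db5 lines the rise was 0.36 (adjusted p = 0.068). It also ended without any one of aB6_A5 (0.060), aB6_B1 (0.063), bB6_A5 (0.059), bB6_B1 (0.064), adb_db5 (0.065) and bdb_db5 (0.064), and without both A5 (0.10) or both B1 lines (0.099). In corrected against db/db lines Sox7 stood at -0.92 ± 0.34 (0.058), and it passed in 6 of 18 alternatives, among them without adb_db7 (0.026), without bdb_db7 (0.024) and without the second library of adb_db7 (0.038). Between corrected and control lines the value was 0.11 ± 0.33 (0.83). Sox7 begins 671981 bases beyond the end of Gata4 on the same chromosome, whose median level differed by -0.0576 to 0.0878 log2 units between lines of different names.

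Foxa2 (ENSMUSG00000037025, chromosome 2, 148042877 to 148046969, reverse strand) encodes a forkhead factor of visceral and definitive endoderm and of the node and floor plate. All control libraries together held 10 counts, all db/db libraries 15 and all corrected libraries 24. Lines ranged from 0.0243 to 0.0574 CPM in controls and from 0.0308 to 0.0894 in db/db lines, with 0.170 and 0.189 in the corrected lines. The second libraries of adb_db5 and adb_db7 had 0 counts, which allows up to 0.0849 and 0.110 CPM (3 counts). Both corrected lines were above every other line. The log2 difference was 1.48 to db/db lines and 1.99 to control lines, given here as values with no call, because the gene entered the test through its level in the corrected lines. In the fit without a filter, which does not depend on that level, the values were 1.46 (edgeR adjusted p = 0.057) and 1.98 (0.019). Between db/db and control lines the value was 0.51 ± 0.47 (0.55).

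Dab2 (ENSMUSG00000022150, chromosome 15, 6299788 to 6440712, forward strand) encodes a clathrin adaptor that binds the tail of megalin and is needed for the endoderm to lie on the surface of the inner cell mass. It stood at 0.801 and 0.512 CPM in the A5 control lines, 0.680 and 1.08 in the B1 control lines, 0.383 and 0.313 in the db5 lines, 0.432 and 0.554 in db7, and 2.79 and 2.28 in corrected lines. Both corrected lines were above every other line, and control and db/db lines overlapped. Dab2 rose in corrected against db/db lines (2.42 ± 0.29, adjusted p = 0.00031), the largest rise among the 8 genes, and against control lines (1.60 ± 0.28, 0.0025). Both calls held in every alternative run except that with the corrected lines merged (0.20 and 0.26). The value in db/db against control lines was -0.82 ± 0.26 (0.055). It passed with DESeq2 (0.029), with single libraries as samples (0.024), without line bB6_A5 (0.030), without line bdb_db7 (0.049) and without the second library of adb_db7 (0.045). Genes of chromosome 15 were higher in the A5 control lines, with medians of 0.395 and 0.408 log2 units above lines of other names, against -0.186 to 0.0652 in the other lines. Without both A5 lines the Dab2 value in db/db against control lines was -1.0 (adjusted p = 0.030).

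Pdgfra (ENSMUSG00000029231, chromosome 5, 75152292 to 75198215, forward strand) encodes the receptor of PDGF-A. It marks primitive endoderm early and supports its survival, and is also carried by mesoderm and fibroblasts. Its level was 1.38 and 1.17 CPM in the A5 control lines, 1.46 and 1.76 in the B1 control lines, 0.984 and 0.864 in the db5 lines, 0.864 and 0.923 in db7, and 3.41 and 2.80 in corrected lines. The 3 groups did not overlap, and the names within a genotype were close (db7 against db5 -0.05 ± 0.19, B1 against A5 0.32 ± 0.17, neither called). Pdgfra fell in db/db against control lines (-0.62 ± 0.16, edgeR adjusted p = 0.024). It rose in corrected against db/db lines (1.60 ± 0.18, 0.00023) and against control lines (0.97 ± 0.18, 0.0030). The fall ended without aB6_B1 (0.057), bB6_B1 (0.067), adb_db7 (0.058) or bdb_db5 (0.053), without both B1 lines (0.12) or both db7 lines (0.073), and without the filter on low counts (0.053). The rise over control lines ended without db_c_1 (0.055), and the rise over db/db lines held in every alternative run except that with the corrected lines merged (0.21).

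Over the 10 lines, Dab2 and Pdgfra were the pair of members whose log2 levels ran most alike, with a Pearson r of 0.977 (n = 10 lines, of which several are near copies). Sox17 and Pdgfra followed at 0.903. Lrp2 had an r of 0.0965 to Dab2 and -0.0684 to Pdgfra, and Sox7 one of -0.480 and -0.409. Starts of 4 of the 8 genes (Foxa2, Dab2, Pdgfra and Lrp2) were examined, taken from the RefSeq promoter table (GRCm38.p6). The count need not cover every start in that table, so it does not show that the other genes lack a start there. The 250 bases before the first Dab2 start and before the Pdgfra start are shown here because these genes moved together. They are given 5′ to 3′ on the strand of the gene, with any GATAA or ACAAT (the cores bound by GATA and SOX factors, searched on both strands, with no overlap between them) in capitals. The Dab2 stretch is chr15:6299539-6299788, forward strand, and that of Pdgfra is chr5:75152001-75152250, forward strand. The Pdgfra stretch ends before the GENCODE start of the gene at 75152292. The bases checked after this RefSeq start were found in no GENCODE transcript of Pdgfra, so the start is less certain than that of Dab2.
Dab2: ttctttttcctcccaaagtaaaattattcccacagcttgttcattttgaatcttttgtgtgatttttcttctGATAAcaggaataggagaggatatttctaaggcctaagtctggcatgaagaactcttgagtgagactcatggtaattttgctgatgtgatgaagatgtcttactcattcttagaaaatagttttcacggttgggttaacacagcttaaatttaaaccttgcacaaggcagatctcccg
Pdgfra: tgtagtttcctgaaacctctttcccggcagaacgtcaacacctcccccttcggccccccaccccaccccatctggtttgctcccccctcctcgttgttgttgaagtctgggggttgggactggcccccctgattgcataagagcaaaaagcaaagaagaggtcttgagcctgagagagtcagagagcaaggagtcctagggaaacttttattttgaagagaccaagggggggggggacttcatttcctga
The Dab2 stretch holds 1 GATAA, whose first base lies 178 bases before the start, and the Pdgfra stretch holds none. Neither holds ACAAT. Of the 32817 starts counted, 22.6% had a GATAA and 27.7% an ACAAT in such a window. The windows before the Lrp2 start and the second Dab2 start had neither motif, and of 3 Foxa2 starts 1 had a GATAA. The share of G and C was 36.8% for the first Dab2 start, 54.4% for Pdgfra and 66.4% for Lrp2, with a median of 52.4% over the 32817 starts counted. Such a match is a run of letters and not a measured binding site.

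Lrp2 (ENSMUSG00000027070, chromosome 2, 69424340 to 69586065, reverse strand) encodes megalin, the receptor through which visceral endoderm and kidney take up many proteins. It was at 4.64 and 4.09 CPM in the A5 control lines, 2.43 and 2.25 in the B1 control lines, 4.84 and 4.89 in the db5 lines, 19.5 and 24.6 in db7, and 11.2 and 10.01 in corrected lines. The db7 lines were highest, the corrected lines came next, and the db5 lines were barely above the A5 controls. Lrp2 rose in db/db against control lines (2.05 ± 0.54, edgeR adjusted p = 0.030). Names within a genotype differed too: db7 was above db5 by 2.18 ± 0.11 (6.4e-08), as large a difference as that between the genotypes, and B1 was below A5 by -0.92 ± 0.13 (0.00019). Without both db7 lines the value was 0.59 (0.22). The call also ended without aB6_B1 or bB6_B1 (0.082 each), adb_db7 (0.074) or bdb_db7 (0.075), and without both B1 lines (0.18). Corrected lines did not pass against db/db lines (-0.51 ± 0.64, 0.57) or control lines (1.54 ± 0.62, 0.082). The latter passed in a fit of only these groups (0.011) and with single libraries as samples (0.0055). Set against the db5 lines alone, without db7, the corrected lines were 0.96 higher (0.058), and set against the db7 lines alone they fell (-1.22, 0.025).

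Between lines of a single genotype, 5 of 8 genes were called for db7 against db5 (Lrp2 higher; Gata4, Gata6, Sox17 and Sox7 lower), where 42% of all genes were called (20.4% rose and 21.5% fell). For B1 against A5, 2 of 8 were called (Gata6 higher, Lrp2 lower), where 38.8% of all genes were called (19.1% rose and 19.7% fell). Dab2, Pdgfra and Foxa2 were called in neither, with values of 0.50 ± 0.33, -0.05 ± 0.19 and -0.83 ± 0.69 for db7 against db5. The samples of these tests are the paired a and b lines, so that they compare only these names.

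The 12 gene lists that follow share some genes: Eomes is in 3 of them, and genes such as Sox18, Cubn, Amn, Hnf4a, Gata3, Hhex, Hand1, Foxa1, Cer1 and Pdgfrb are in 2 each. Their counts have the line as the replicate. The filter on low counts (0.148 CPM) keeps a gene that passes in the corrected lines alone and drops one that is low everywhere. List genes kept in that way, if any, were not set aside as Foxa2 was. This favours calls of rises in the corrected lines, most of all in lists of low genes. Over all genes tested, 16.9% were called in db/db against control lines (7.41% rose and 9.5% fell), 36.7% in corrected against db/db lines (18.7% and 18%) and 33.2% in corrected against control lines (16.2% and 17%). The share called in a list ranged from 0% (endothelium) to 62.5% (fibroblast) in the first, from 22.2% (endothelium) to 58.3% (mesoderm and heart) in the second and from 21.4% (FGF and PDGF signalling) to 63.6% (relatives of the regulators) in the third. Shares near the background, such as 37.5% for the endocytic and 36.4% for the definitive endoderm list in corrected against db/db lines, are no result about the list. With the shared name as the replicate, 0 genes of any list were called in db/db against control lines with edgeR (12 up and 34 down at an unadjusted p under 0.05). Summed over lists, 31 rose and 10 fell in corrected against db/db lines, where 1631 of all genes rose and 1650 fell. Against control lines 19 rose and 12 fell, where 1227 of all genes rose and 1320 fell. All these sums count a gene once for each list that holds it. The count of all genes at the unadjusted p is not given here. Values after a gene's name are log2 fold changes with edgeR's adjusted p.

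Transcription factors related to the regulators were examined as a list of 12, of which 11 were tested. The db/db lines against control lines gave 2 up and 1 down (median -0.03, against 0.00 over all genes). The T-box factor Eomes rose (0.69, adjusted p = 0.028), the homeobox factor Otx2 rose (0.73, 0.041) and the blood and trophoblast factor Gata2 fell (-1.06, 0.045). Corrected lines against db/db lines gave 4 up and 2 down (median 0.06). Sox18, the third SoxF gene, rose from 0.166 ± 0.045 to 1.15 ± 0.085 CPM (2.61, 0.00013), and Gata3, a factor of trophoblast, from 0.659 ± 0.29 to 5.80 ± 0.23 (2.96, 0.00046). Otx2 fell from 36.6 ± 12 to 10.4 ± 1.1 CPM (-1.98, 0.00074). Against control lines 4 rose and 3 fell (median 0.42), among them Hnf4a, a nuclear receptor of visceral endoderm and liver, which rose from 7.11 ± 1.4 to 15.8 ± 0.28 CPM (1.02, 0.0017).

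Of 14 genes of FGF and PDGF signalling, which act upstream of Gata6 and through Pdgfra, 2 rose and 1 fell in db/db against control lines (median 0.06). The epiblast ligand Fgf5 rose (1.84, adjusted p = 0.022), as did the receptor gene Fgfr2 (1.31, 0.046), and Pdgfrb, the other PDGF receptor, fell (-0.93, 0.039). For corrected against db/db lines the counts were 2 up and 4 down (median -0.27): the ligand Pdgfd rose (1.75, 0.013), while Fgf5 (-2.42, 0.012) and the adaptor Grb2 (-0.28, 0.0067) fell. Against control lines 1 rose and 2 fell (median -0.11), with Fgfr3 up (1.45, 0.027) and Fgf4, the ligand made by pluripotent cells, down from 416 ± 48 to 349 ± 0.30 CPM (-0.39, 0.024).

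Endocytic receptors and adaptors, the partners and relatives of megalin and Dab2, were a list of 17 with 16 tested. For db/db against control lines the counts were 3 up and 0 down (median 0.04): Amn, which anchors cubilin, rose (1.16, adjusted p = 0.0048), as did the adaptors Numb (0.28, 0.0090) and Ankra2 (0.31, 0.031). Corrected lines set against db/db lines gave 4 up and 2 down (median 0.08). Cubn, the cubilin gene, was at 0.10 ± 0.025 CPM in db/db and 1.46 ± 0.12 in corrected lines (log2 3.66). Its db/db mean was below the filter cut of 0.148 CPM. The value is therefore given with no call, though the 4 rises include it. Against control lines 7 rose and 2 fell (median 0.45). Amn differed from Cubn in that it stood at similar levels in db/db and corrected lines, 0.881 ± 0.15 and 0.980 ± 0.096 CPM (-0.02, 0.95).

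The products of primitive endoderm were followed in 2 lists. Parietal endoderm, the migrating branch that lays down Reichert's membrane, was represented by 21 genes, all tested. The db/db lines against control lines gave 1 up and 7 down (median -0.29). The collagen chaperone Serpinh1 fell from 89.7 ± 6.3 to 40.9 ± 7.2 CPM (-1.09, adjusted p = 0.00050) and laminin Lama1 from 90.1 ± 9.3 to 59.0 ± 7.3 (-0.57, 0.0065), while the activin inhibitor Fst rose (0.50, 0.0050). Corrected lines against db/db lines gave 12 up and 0 down (median 0.64; 9 and 0 with the shared name as the replicate), with the basement membrane collagens Col4a1 (62.2 ± 9.1 to 187 ± 6.9 CPM; 1.41, 0.00011) and Col4a2 (1.41, 0.00012) and with Fst (1.09, 9.1e-05). Against control lines 7 rose and 3 fell (median 0.47). Many of these matrix genes are also made by fibroblasts and pluripotent cells.

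Visceral endoderm, the absorptive branch, was a list of 26 genes with 19 tested. Of the 26, 10 were above 1 CPM in every line and 10 were below it in every line. Summed levels were 1379 to 1466 CPM in control, 1400 to 1573 in db/db and 1120 to 1138 in corrected lines. Some secreted products of this layer were among the low genes. The highest level in any line was 0.119 CPM for Afp, 0.117 for Apoa1, 0.0629 for Ttr and 0.0472 for Fga. It was 0.0314 for Cer1 and 0.0157 each for Apoa4 and Fgb. For db/db against control lines the counts were 1 up and 3 down (median 0.10), the apolipoprotein gene Apom falling from 2.51 ± 0.37 to 0.796 ± 0.31 CPM (-1.61, adjusted p = 0.0040) and the homeobox gene Hhex by 0.49 on the log2 scale (0.022). For corrected against db/db lines the counts were 5 up and 5 down (median -0.15). Apom rose (2.91, 0.00015), and Tdh, a threonine dehydrogenase abundant in pluripotent cells, fell (-0.44, 0.0011). Against control lines 5 rose and 4 fell (median -0.12), with the Nodal inhibitor Lefty1 down from 153 ± 28 to 17.9 ± 2.2 CPM (-3.23, 0.0025).

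**Figure D3:**
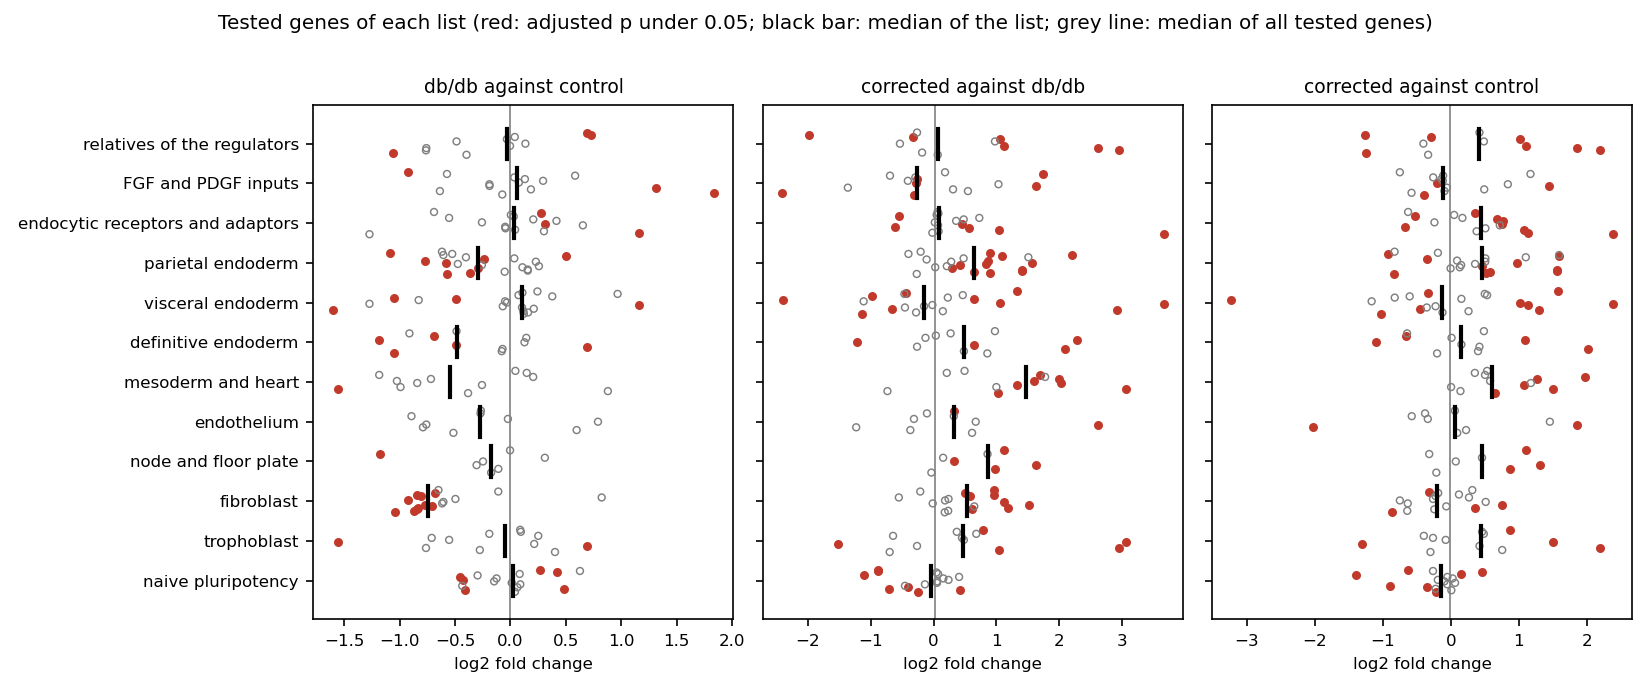
Log2 fold change (horizontal axis) of the tested genes of 12 gene lists in 3 comparisons of lines; filled red points have an adjusted p under 0.05, black bars are list medians and the grey line is the median of all tested genes. In corrected against db/db lines, the parietal endoderm list has 12 genes up and 0 down and the mesoderm and heart list 7 up and 0 down, while visceral endoderm is split 5 and 5. Genes that passed the filter on low counts through the corrected lines alone, if any, were not left out of these counts.

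Other cell types that use the same 8 genes were followed in the same way, and their part in the results was not tested. Definitive endoderm (11 of 15 tested) had 1 rise and 4 falls in db/db against control lines (median -0.49), 3 rises and 1 fall in corrected against db/db lines (0.48), and 2 of each against control lines (0.16). Sfrp5, a Wnt inhibitor, fell in db/db against control lines (-1.19, adjusted p = 0.012) and rose in corrected against db/db lines (2.28, 0.00033). The tight junction gene Cldn4 fell in the first of these (-0.69, 0.0023). Mixl1, of the primitive streak, was at 0.0780 ± 0.020 CPM in db/db and 0.382 ± 0.060 in corrected lines (log2 2.09). Its db/db mean was below the filter cut of 0.148 CPM. The value is therefore given with no call, though the 3 rises above include it. The summed level of this list was 328 to 469 CPM in control, 367 to 404 in db/db and 238 to 242 in corrected lines, most of it Trh, which fell in corrected against db/db lines (-1.23, 0.0036).

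Mesoderm and heart genes, where Gata4, Gata6 and Pdgfra also act, were tested for 12 of 15. The db/db lines against control lines gave 0 up and 1 down (median -0.55), the heart and trophoblast factor Hand1 (-1.56, adjusted p = 0.022). Corrected lines set against db/db lines gave 7 up and 0 down (median 1.47), and 4 and 0 with the shared name as the replicate. Hand1 went from 0.0865 ± 0.029 to 0.825 ± 0.055 CPM (3.06, 0.00048) and the heart progenitor factor Isl1 from 0.229 ± 0.028 to 1.03 ± 0.17 (1.99, 0.00042). Of the 15 listed genes, 10 were below 1 CPM in every line. The db/db mean of Hand1 was below the filter cut of 0.148 CPM. The filter could therefore favour the rises of this list and its median. Against control lines 5 rose and 0 fell (median 0.61). Summed levels were 9.68 to 23.6 CPM in control, 12.3 to 14.8 in db/db and 31.8 to 32.3 in corrected lines, and the primitive streak gene T reached at most 0.143 CPM.

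Endothelium, the other site of Sox7 and Sox17, had 9 of 11 genes tested. In db/db against control lines 0 were called with edgeR (2 fell at an unadjusted p under 0.05) and 0 with DESeq2, and the median was -0.27. Sox18 stood at -0.76 (adjusted p = 0.059). Sox18 and the co-receptor gene Eng (0.33, 0.040) rose in corrected against db/db lines, giving 2 rises and 0 falls (median 0.32). Against control lines there was 1 of each (median 0.06). Cdh5, the cadherin that defines endothelium, reached at most 0.141 CPM, while 4 of the 11 listed genes were above 1 CPM in every line. Summed levels of this list were 152 to 230 CPM in control, 124 to 165 in db/db and 215 to 222 in corrected lines. Node and floor plate, a site of Foxa2, had 7 of 10 genes tested, with 0 rises and 1 fall in db/db against control lines (median -0.17), 4 and 0 in corrected against db/db lines (0.86), and 3 and 0 against control lines (0.46). Nog, a BMP inhibitor, rose from 0.339 ± 0.012 to 1.18 ± 0.21 CPM in corrected against db/db lines (1.63, 0.00084) and Foxa1 from 0.946 ± 0.18 to 2.31 ± 0.14 (1.11, 0.0062). The node genes Shh and Noto reached at most 0.0723 and 0.0480 CPM, while 2 of the 10 listed genes were above 1 CPM in every line. Summed levels of the node and floor plate list were 100 to 106 CPM in control, 74.7 to 91.7 in db/db and 119 to 121 in corrected lines.

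Fibroblast genes, which mark the source cells and can accompany Pdgfra, fell in db/db against control lines in 10 of 16 tested genes, with 0 rises (median -0.74). Summed over all 18 listed genes, they were at 1499 to 1592 CPM in control, 1170 to 1389 in db/db and 1302 to 1416 in corrected lines. Collagen Col5a1 went from 64.3 ± 7.1 to 35.1 ± 1.5 CPM (-0.83, adjusted p = 0.00015) and Col1a1 from 142 ± 20 to 66.8 ± 14 (-1.04, 0.0025). Corrected lines against db/db lines gave 8 up and 0 down (median 0.54). Col1a1 did not pass there, at 85.0 ± 14 CPM in corrected lines (0.18, 0.49). Against control lines 2 rose and 2 fell (median -0.20). Whether fibroblast genes and Pdgfra share a source was not tested. Trophoblast genes (12 of 13 tested) had 1 rise and 1 fall in db/db against control lines (median -0.05), 4 and 1 in corrected against db/db lines (0.47), and 3 and 1 against control lines (0.44). In corrected against db/db lines Gata3 and Hand1, whose values are given above, were among the 4 that rose. Tfap2c was the 1 that fell, from 30.2 ± 0.95 to 11.9 ± 0.18 CPM (-1.52, 0.00010). The giant cell hormone Prl3d1 was at 0 in every line.

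Naive pluripotency genes, the alternative to the endoderm fate, split 3 up and 3 down in db/db against control lines (median 0.03). Sox2 rose (0.48, adjusted p = 0.0038), and Nanog, which opposes Gata6 in the blastocyst, fell from 541 ± 88 to 395 ± 20 CPM (-0.41, 0.019), in the same direction as Gata6. For corrected against db/db lines the counts were 1 up and 6 down (median -0.05). Nanog was the gene that rose (0.42, 0.018), and Nr5a2 (-0.89, 0.00019), Sox2 (-0.71, 0.00068) and Pou5f1 (-0.25, 0.0086) were among those that fell. Against control lines 2 rose and 5 fell (median -0.14), with Dppa3 down from 3.73 ± 0.64 to 1.55 ± 0.19 CPM (-1.40, 0.0036). Counts of Pou5f1, Sox2 and Klf4 do not separate the endogenous transcripts from those of the reprogramming lentivirus.

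For each of the 8 genes, the 3 other genes whose log2 level ran most alike over the 10 lines were sought among 11918 named genes whose mean reached 1 CPM. The lowest of all these values of r was 0.959, and over 10 lines of 5 kinds r is a description only. Gata4 was followed most closely by Samd4, Lrp8 (an LDL receptor relative of Lrp2) and Pls1 (r = 0.977 to 0.983), and Gata6 by Lhx6, Ttll3 and Fjx1 (0.985 to 0.987). The genes most like Sox17 were Plekhh3, Gne and Plxna2 (0.978 to 0.980), and those most like Sox7 were Pds5b, Egln3 and Ddx58 (0.959 to 0.978). Pds5b, a cohesin partner, stood at 145 CPM in db5 lines and at 57.4 to 74.0 in the other kinds. Foxa2 had Decr2, Hpf1 and Fam210b (0.970 to 0.978), Dab2 had Atg3, Mob3b and Rtkn2 (0.982 to 0.984), and Pdgfra had Zc3h6 and Slc30a1 (0.986 and 0.984). Lrp2 had the closest companions, Bbs7, Zgrf1 and Snx10 (0.995 to 0.997). Bbs7 and Zgrf1 lie on chromosome 3, whose genes stood 0.363 and 0.434 log2 units (median) above the lines of different names in db7, and between -0.198 and 0.0390 elsewhere. Lrp2 itself lies on chromosome 2, where the medians were between -0.0624 and 0.152.

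Both libraries of a line did not always give the same level. In the 7 control and db/db lines with libraries numbered 1 and 2, Gata6 and Dab2 were higher in the second library in 6 lines each, Pdgfra in 5, Sox17 and Foxa2 in 4, Sox7 in 3, Gata4 in 2 and Lrp2 in 0. The median log2 ratio of the second to the first library (0.05 CPM added) was 0.38 for Gata6, 0.67 for Dab2, 0.33 for Pdgfra, -0.27 for Gata4 and -0.15 for Lrp2. The fibroblast genes Col1a1 and Pdgfrb were higher in the second library in 7 of 7 lines, with medians of 0.87 and 0.82. Both were picked after their values were seen. The other genes of the fibroblast list were not compared between libraries in this way, so they say nothing about that list. Within libraries numbered 1 alone, db/db against control lines gave -1.94 for Gata6 (edgeR adjusted p = 0.010), -0.85 for Pdgfra (0.025), -1.15 for Sox17 (0.068), 1.01 for Sox7 (0.040) and 2.05 for Lrp2 (0.043). Within libraries numbered 2 alone the values were -2.27 for Gata6 (0.0075), -0.46 for Pdgfra (0.32), -1.22 for Sox17 (0.091), 1.0 for Sox7 (0.14) and 2.23 for Lrp2 (0.081). Gata6 was thus called in either set and Sox17 in neither, while Pdgfra, Sox7 and Lrp2 were called in the first set alone. The directions of these 5 genes were the same in both sets. What the numbers stand for is not said in the labels.

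**Figure D4:**
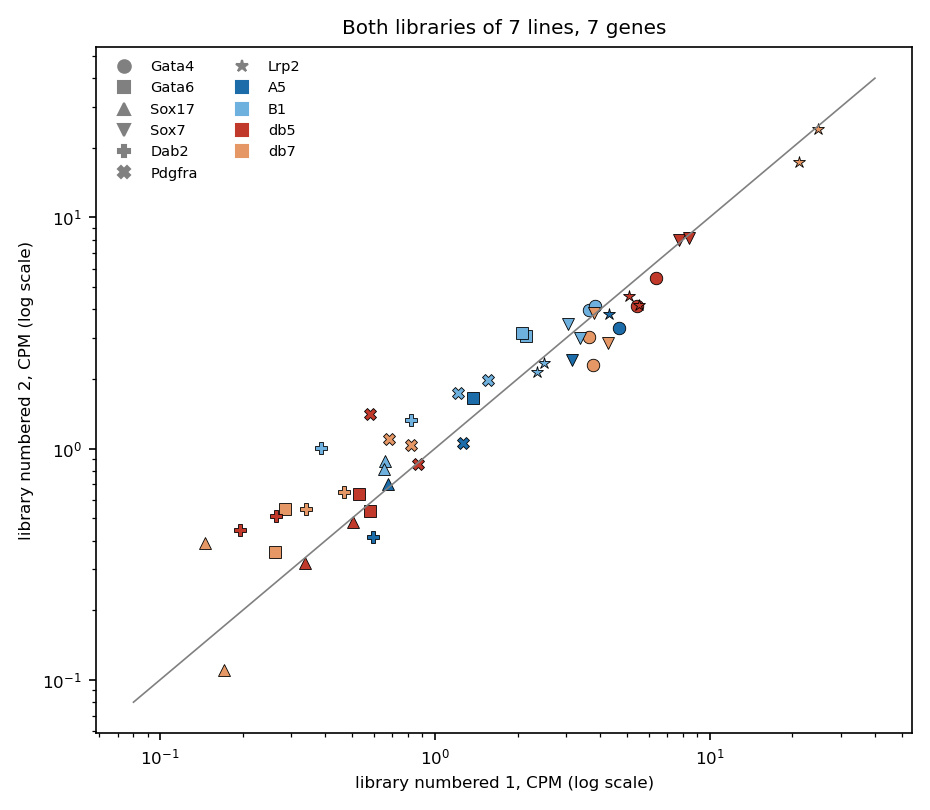
Level in the library numbered 2 against that in the library numbered 1 (CPM, both axes on a log scale) for 7 of the genes in the 7 lines with both; shapes are genes, colours are names of lines and the grey line marks equal levels. Gata6 and Dab2 lie above the line in 6 of 7 lines each, and Lrp2 lies below it in all 7.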

How the data were processed

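Poly(A) RNA of 19 libraries from 10 mouse iPSC lines was sequenced on a NovaSeq from stranded TruSeq libraries, per the labels' protocols. The authors deposited estimated counts per gene; kallisto and GRCm38 are named in the submitters' processing notes, while the index, the versions and how transcripts were summed are not stated in the sources used here. Of 52143 identifiers 51250 matched GENCODE M21 (99.4% of counts).

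Groups, lines and library numbers came from the labels. Estimated counts were rounded per library and summed per line, because nothing says that libraries of a line were separate cultures; p-values therefore rest on how far lines differ, which may in part be technical. All 10 lines entered a single fit in edgeR 4.0.16 (R 4.3.3): filterByExpr (19700 genes kept), TMM, quasi-likelihood F-test, Benjamini-Hochberg adjustment over all genes tested, threshold 0.05. SE is the log2 fold change over the square root of F. CPM were unscaled by TMM and are means ± SD over lines (n = 4, 4 and 2). A second fit had 5 kinds of line (A5, B1, db5, db7, corrected). On simulated counts with known changes the test was checked and recovered them. The simulated lines were independent and varied less than the real lines, so this check does not cover lines that are near copies. A count of 0 allows up to 3 counts; such limits cover counting error only. Exon lengths for levels per kb are unions of exons in GENCODE M21.

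The 8 genes and the lists were chosen with earlier results of these data known. Named genes were the 8 genes, up to 3 genes of each list with the lowest edgeR p per comparison, and the 3 genes most like each member (log2 CPM, prior count 2); the defining and second-library markers named beside them were chosen after their values were seen. Some genes that this rule names are not reported here. Alternatives were DESeq2 1.42.0 and its size factors, library size alone, no filter, a prior count of 2, shared names or single libraries as samples, a replicate block, only the groups compared, and leaving out lines, names or a library. Fits on libraries of a single number, lines left out between names, list counts in other fits, and merged corrected lines were added after the data were seen. Overlapping and antisense genes had at most 6 counts. Promoter sequences are from RefSeq (GRCm38.p6). No columns were left out.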

Additional observations from a re-analysis of the deposited data

How the results depend on the processing

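Of the alternatives for the 8 genes, 493 kept their side of the threshold and direction, 85 lost the call, 23 gained it and 6 reversed. The counts of all genes called, given next, are not part of these totals. In db/db against control lines, 3332 genes were called; shared names as the unit gave 34, single libraries without a block 7247, only libraries numbered 1 gave 2051 and only those numbered 2 gave 1414. In corrected against db/db lines (7235 called) shared names gave 3281, and in corrected against control lines (6537) they gave 2547; with the corrected lines merged as well they gave 0 and 4, in a fit with a lone corrected sample. Leaving out lines or both lines of a name gave 1991 to 5410 genes for db/db against control, with 1991 without aB6_B1, 2021 without bB6_B1, 5397 without both A5 and 5410 without both db5 lines. For corrected against db/db it gave 3113 to 8427 (3113 without db_c_1, 3183 without db_c_2), for corrected against control 2377 to 6778 (2438 without db_c_1, 2377 without db_c_2), for db7 against db5 5917 to 9581 and for B1 against A5 5637 to 5945. Reversals came from leaving out lines and are given with the range of all such fits: Gata4 in db/db against control (-0.31 to 0.43; -0.09 without adb_db5, -0.31 without both db5 lines), Lrp2 in corrected against db/db (-1.22 to 0.96; 0.96 without both db7 lines), Gata6 in corrected against control (-0.82 to 0.20; 0.20 without both B1 lines), Sox7 there (-0.0039 to 0.23; -0.0039 without db_c_1) and Pdgfra in db7 against db5 (-0.14 to 0.043; 0.043 without adb_db5). Library size alone moved the median of all genes by 0.17 in corrected against db/db and 0.13 in corrected against control lines and their splits to 5215 up and 1817 down (3683 and 3552 before) and 4407 and 2049 (3184 and 3353), and that of db/db against control to 1085 and 2156 (1460 and 1872). The cause of these changes was not tested.

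Whether the library numbers pair lines was checked in 12 pairs of a control and a db/db line. Deviations of same-numbered libraries correlated at 0.012 to 0.532 over 9051 genes, all above 0 but 1 below 0.1. The numbers were not taken to pair lines, which does not show that the number had no effect. Control line aB6_A5 had only a library numbered 1, so the numbers were not balanced between the groups. With single libraries of these groups as samples and the number as a replicate block, 6188 genes were called in db/db against control lines, and Dab2 was called with the block (-0.86, adjusted p = 0.015) as it was with single libraries without it (0.024). Depth limits Foxa2 most, with 10 to 24 counts per group, and next Sox17 and Dab2. Foxa2 failed the filter on low counts in some alternatives and has no value there (19 of 24 gave one in db/db against control lines, 17 of 18 in the other group comparisons).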
